A study of Homo sapiens with 42 samples.

Results

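The comparison concerned DNA pulled down with an antibody to topoisomerase 2B (TOP2B) from KG1 cells that had received no drug, set against input DNA of the same replica. KG1 is an established human line of acute myelogenous leukaemia. All untreated TOP2B libraries of the study entered with the untreated input library of the same series and replica, which gave 7 pairs, or 14 of 42 libraries. Of these pairs, 4 belonged to the etoposide series and 3 to the mitoxantrone series, and the names of the drugs mark only the series for these pairs. For comparison, drug-treated TOP2B and input libraries of the same replicas were used, kept for 1 h with 100 µM etoposide (4 pairs) or 20 µM mitoxantrone (3 pairs), as were untreated TOP2A libraries. Cells of both groups had been kept for 1 h with vehicle, and chromatin was sonicated without formaldehyde. The labels' protocols give a step with TDP2, which takes TOP2 off blocked 5′ ends, followed by BsmAI digestion and heating of the eluate. The protocols do not say which of these steps the input went through, and no pulldown with a control antibody was analysed here. Reads had been counted in 2523 centromeric and satellite regions of 12 classes on the T2T-CHM13 genome, and all of these regions were used.

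TOP2B is 1 of the type II topoisomerases of human cells, enzymes that pass a DNA duplex through a transient cut in another duplex and so relieve supercoils and entanglements. While the cut is open the enzyme is bound covalently to the 5′ ends, and drugs called TOP2 poisons hold it there. Without a drug and without a crosslinker such complexes are short-lived, so an untreated pulldown is the level from which drug-held complexes are read. Human centromeres are built on alpha satellite, arranged as higher-order arrays that carry the kinetochore and flanked by monomeric and divergent copies. Around them lie beta and gamma satellites, the human satellites HSat1 to HSat3, smaller repeat families, ribosomal DNA on the acrocentric short arms, and transition stretches of largely non-satellite DNA. The question was which of these regions and chromosomes the untreated TOP2B pulldown held in excess or in deficit of input, and whether any did so within its class.

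TOP2B libraries held 2875487 to 32616057 reads (median 4132643) and input libraries 4399757 to 59639786 (median 20219414). Reads in the named regions numbered 108441 to 1793995 in TOP2B libraries and 179698 to 3207823 in input. Pairs were not equally informative. Over 668 regions with a mean of at least 50 reads, the spread of the log2 ratio of TOP2B to input, as a robust SD, was 0.145 in mitoxantrone-series replica 3, the deepest pair, and 0.212 in etoposide-series replica 2. It was 0.822 in etoposide-series replica 1 and 0.823 in etoposide-series replica 4, which is 2.42 and 1.98 times the spread that counting alone gives. Reads set aside for low mapping quality made up 54.5% of the TOP2B library and 68.3% of the input library in mitoxantrone-series replica 1, and 46.7% and 37.8% of them in mitoxantrone-series replica 2. In the other 5 pairs these percentages differed by at most 5.04 points. Which regions these discarded reads came from is not known, and their part in the results below was not tested.

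**Figure D1:**
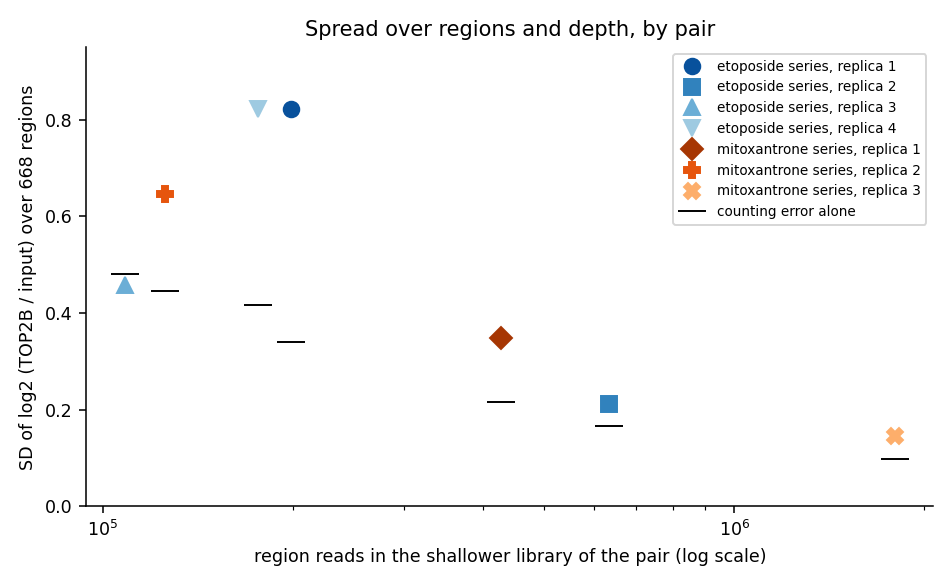
Spread of the log2 ratio of TOP2B to input over regions (vertical axis, robust SD, 668 regions with a mean of at least 50 reads) against the region reads of the shallower library of each pair (horizontal axis, log scale). Each symbol is 1 of 7 pairs and each black bar the spread from counting error alone; mitoxantrone-series replica 3 lay lowest at 0.145, and etoposide-series replicas 1 and 4 highest at 0.822 and 0.823.

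No class of region passed the test between the untreated TOP2B pulldown and input, and single pairs differed widely. Centromeric transition DNA made up 89.9% to 97.1% of region reads in TOP2B libraries (median 94.0%) and 89.9% to 95.4% in input (median 93.8%). Beta satellite, gamma satellite and the class of other centromeric satellites each took a smaller share in TOP2B than in input in 6 of 7 pairs. HSat1A took a larger share in 5 of 7 pairs. The mean log2 ratio of TOP2B to input was -0.34 ± 0.26 for beta satellite (SD, 7 pairs), -0.51 ± 0.72 for gamma satellite, -0.23 ± 0.27 for the other centromeric satellites and 1.14 ± 1.67 for HSat1A. By an exact two-sided permutation of signs over the 7 pairs, beta satellite had p = 0.0312, the smallest of the 12 classes, and an adjusted p of 0.328; with a smallest p of 0.0156, at least 4 classes would have had to reach it for any to pass. The exception among the first 3 classes was the same pair each time, mitoxantrone-series replica 1. That pair was the only one read at 100 bp, the others having 50 bp or, in etoposide-series replica 1, 38 bp. Etoposide-series replicas 3 and 4 and mitoxantrone-series replica 2 shared a sequencing order, and each other pair had its own. For mitoxantrone-series replica 1, read length and sequencing order cannot be told apart, and the part of neither was tested. Without that pair, which was singled out after its sign was seen and so leaves nothing to test, beta satellite averaged -0.42, gamma satellite -0.66 and the other centromeric satellites -0.30 over 6 pairs. The labels do not say whether replicas were separate cultures, so the p-values measure only the spread between these samples, which may be technical.

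**Figure D2:**
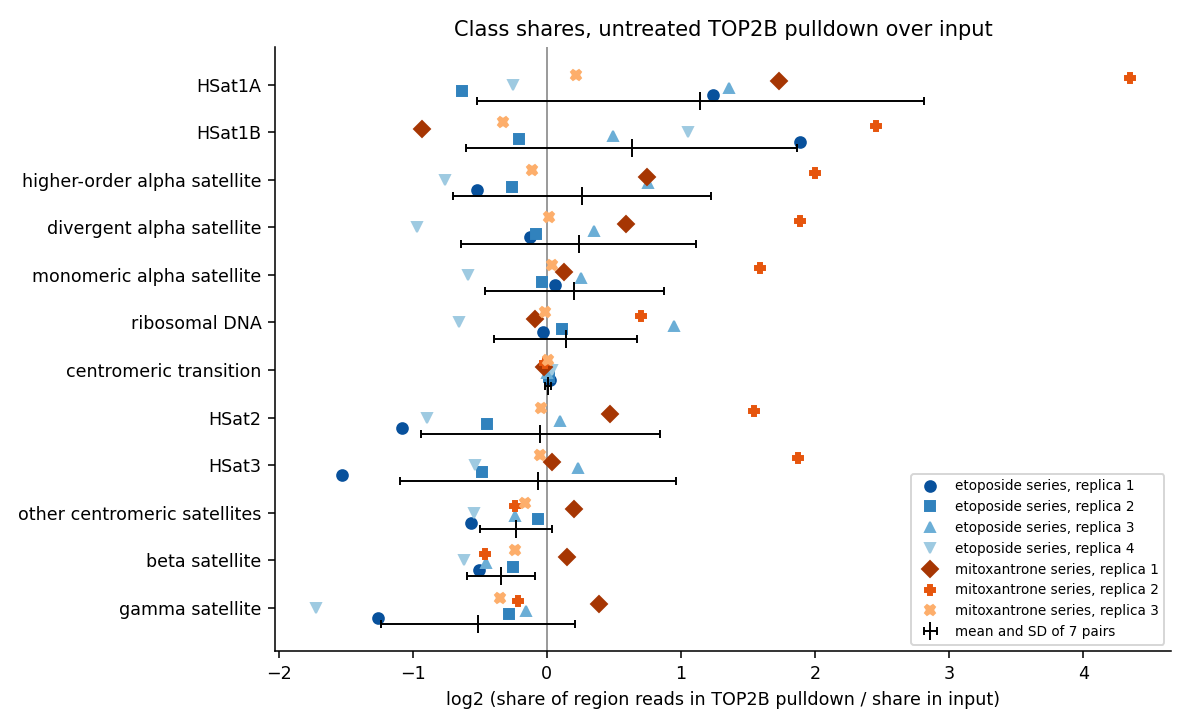
Log2 ratio of the share of region reads in the untreated TOP2B pulldown to that in input (horizontal axis) for 12 classes of region (rows). Each symbol is 1 of 7 pairs, and the black bar under each row is the mean with the SD; beta satellite, gamma satellite and other centromeric satellites lay left of 0 in 6 of 7 pairs, with mitoxantrone-series replica 1 on the right, and HSat1A reached 4.35 in mitoxantrone-series replica 2.

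Beta satellite is a short tandem repeat found mainly on the acrocentric short arms and chromosomes 1, 9, 19 and Y. It took 0.725% to 2.08% of region reads in TOP2B libraries (median 0.782%), against 1.00% to 1.87% in input (median 1.11%). Mitoxantrone-series replica 1 stood apart with 2.08% in TOP2B and 1.87% in input. The other 6 TOP2B libraries lay between 0.725% and 1.03% and their inputs between 1.00% and 1.21%, so that these ranges overlapped slightly. In the deepest pair, mitoxantrone-series replica 3, the share was 1.03% in TOP2B (95% Wilson interval 1.01% to 1.04%) and 1.21% in input (1.20% to 1.22%). Intervals and counting errors cover the counting of reads only.

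Beta satellite regions fall into composites with another repeat and regions without it, and the difference between these kinds was not tested. Regions named as LSAU-BSAT composites, which combine beta satellite with the GC-rich LSAU repeat, had a mean log2 ratio of -0.54 ± 0.46 (SD, 7 pairs) over 64 regions together and were lower in 6 of 7 pairs. The 120 beta satellite regions without LSAU together had 0.08 ± 0.48, lower in 4 of 7 pairs. Of the composites, 41 were read deeply enough to be tested one by one with edgeR, and all 41 had a log2 fold change below 0 (median -0.42), against 25 of 60 for the regions without LSAU (median 0.03) and 669 of 1320 over all regions tested (median -0.01). None was called at an adjusted p of 0.05. At an unadjusted p under 0.05 there were 11 composites and none of the others, all 11 lower, beside 5.98% of all regions tested in either direction and 5.23% lower. Regions share their libraries and are not independent replicates. Replica by replica, 37, 30, 25 and 39 of the 41 composites were lower in the 4 etoposide-series pairs, and 16, 35 and 29 in the 3 mitoxantrone-series pairs. Only mitoxantrone-series replica 1 thus had fewer lower than higher. Of the 60 regions without LSAU, 15, 38, 45 and 13 were lower in the etoposide-series pairs, and 30, 43 and 49 in the mitoxantrone-series pairs. Regions without LSAU together had a log2 ratio of 0.75 in etoposide-series replicas 1 and 4 alike. In the other pairs it lay between -0.42 and 0.04, so their mean above 0 rested on those replicas.

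The composite read most was bsat_1_1 on chromosome 1. It held 845 to 3777 counts per 1e6 (CPM, scaled to all region reads) in TOP2B libraries (median 975) and 1103 to 3284 in input (median 1706). Its log2 ratio was -1.36, -0.36, -0.58 and -1.41 in the etoposide-series pairs and 0.17, -0.65 and -0.33 in the mitoxantrone-series pairs. TOP2B was thus below input in 6 of 7 pairs although the ranges of CPM overlapped, and the fitted log2 fold change was -0.63 (SE 0.16, edgeR adjusted p = 0.548). At the other end, bsat_8_5 on chromosome 8 had 27.7 to 141 CPM in TOP2B (median 47.8) and 3.52 to 175 in input (median 23.99), with a log2 fold change of 0.30 (SE 0.31, edgeR adjusted p = 0.959). Within beta satellite, chromosome 1 held 12.9% of the class in TOP2B and 15.5% in input on average (mean log2 ratio -0.25 ± 0.29, lower in 6 of 7 pairs, exact permutation p = 0.0312, adjusted p = 0.574). Chromosome 8 held 4.06% of it in TOP2B and 3.16% in input (0.61 ± 1.02, higher in 5 of 7 pairs, exact permutation p = 0.203).

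Gamma satellite, a GC-rich tandem repeat of the pericentromere, had the lowest mean ratio of the classes and a wide spread between pairs. It took 0.235% to 1.69% of region reads in TOP2B libraries (median 0.644%) and 0.286% to 2.12% in input (median 1.38%). The log2 ratio was -1.26 and -1.72 in etoposide-series replicas 1 and 4, between -0.15 and -0.35 in 4 further pairs, and 0.39 in mitoxantrone-series replica 1 (exact permutation p = 0.109, adjusted p = 0.328). With each pair left out in turn the mean lay between -0.66 and -0.31, the value without etoposide-series replica 4 being the nearest to 0. The shares in the deepest pair were 0.372% in TOP2B (95% Wilson interval 0.363% to 0.381%) and 0.475% in input (0.467% to 0.482%). Of 41 gamma satellite regions tested, 37 had a log2 fold change below 0 (median -0.53), against 669 of 1320 over all regions tested. At an unadjusted edgeR p under 0.05 there were 13 (31.7%), all of them lower, beside 5.23% lower over all regions tested. None was called. Each named kind lay below input on average: GSAT by a log2 ratio of -0.45, GSATX by -0.66, GSATII by -0.72 and GSATII with TAR by -0.64.

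Most gamma satellite reads came from chromosome 8, which held 83.3% of the class in TOP2B and 81.0% in input and a larger part in TOP2B in 7 of 7 pairs (mean log2 ratio 0.04 ± 0.03, exact permutation p = 0.0156, adjusted p = 0.574), and in 5 of 7 drug-treated pairs. The region read most was gsat_8_7 on that chromosome, with 763 to 5612 CPM in TOP2B (median 1989.9) and 879 to 6344 in input (median 3495), and a log2 fold change of -0.46 (SE 0.21, edgeR adjusted p = 0.774, lower in 6 of 7 pairs). A neighbour in name, gsat_8_1, had 26.8 to 760 CPM in TOP2B (median 106) and 39.9 to 576 in input (median 324), with a log2 fold change of -0.79 (SE 0.25, edgeR adjusted p = 0.601). Within the class gsat_8_7 stood above input. It made up 29.4% of gamma satellite reads in TOP2B and 27.7% in input, and its share of the class was higher in 7 of 7 pairs by a log2 ratio between 0.05 and 0.14 (mean 0.09 ± 0.04, SD, 7 pairs; exact permutation p = 0.0156, adjusted p = 0.521). The region gsat_8_13 was likewise a larger part of its class in 7 of 7 pairs, 15.6% in TOP2B and 14.3% in input. Chromosome 21 held less of the class in TOP2B, 1.23%, than in input, 1.57% (mean log2 ratio -0.48 ± 0.49, lower in 6 of 7 pairs, exact permutation p = 0.0312, adjusted p = 0.574).

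The class of other centromeric satellites gathers small repeat families, and these did not lean the same way. It took 0.748% to 1.80% of region reads in TOP2B libraries (median 1.04%) and 0.941% to 1.56% in input (median 1.38%), with an exact permutation p of 0.0625 and an adjusted p of 0.328. HSat5 regions together had a mean log2 ratio of -0.67 ± 0.68 and the 5S repeats -0.72 ± 0.71, each lower in 6 of 7 pairs (SD, 7 pairs). All 15 HSat5 regions tested had a log2 fold change below 0 (median -0.72), and so had all 4 regions of 5S repeats (median -0.50). Over all regions tested 669 of 1320 lay below 0. Pair by pair, 15, 11, 8 and 14 of the 15 HSat5 regions were lower in the etoposide series, and 5, 11 and 13 in the mitoxantrone series. SST1, a macrosatellite, had -0.21 ± 0.32, lower in 5 of 7 pairs, and 39 of its 49 tested regions lay below 0. Of these 49, 41, 19, 20 and 39 were lower in the etoposide-series pairs, and 15, 32 and 42 in the mitoxantrone-series pairs. HSat4 and CER had mean log2 ratios of 0.22 and 0.23 with an SD of 1.05 and 0.56, higher in 4 of 7 pairs each. The families named for the Y-linked genes RBMY and TSPY had 0.13 and 0.09, also higher in 4 of 7. Across the class 132 of 183 tested regions lay below 0 (median -0.23). At an unadjusted edgeR p under 0.05 there were 19 (10.4%), all lower, beside 5.23% lower over all regions tested, and none was called.

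**Figure D3:**
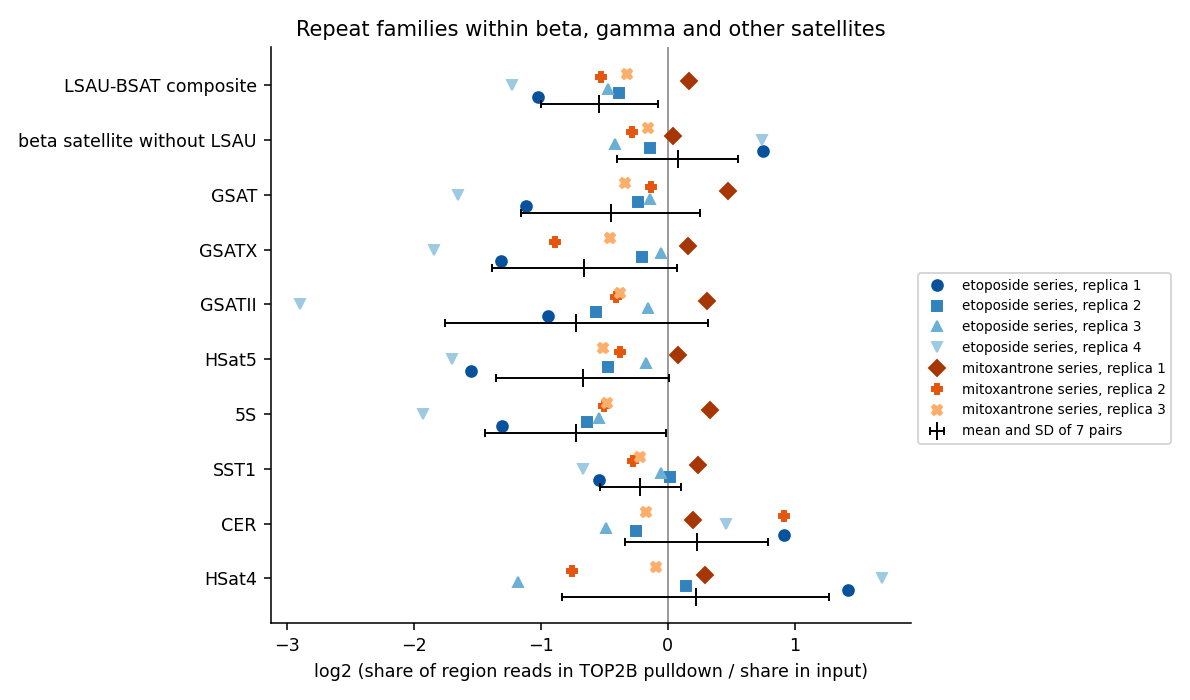
Log2 ratio of the share of region reads in the untreated TOP2B pulldown to that in input (horizontal axis) for repeat families inside the beta, gamma and other satellite classes (rows). Each symbol is 1 of 7 pairs, with the mean and SD as a black bar under the row; LSAU-BSAT composites, HSat5 and 5S lay left of 0 in 6 of 7 pairs, while beta satellite without LSAU, CER and HSat4 fell on both sides.

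The region with the smallest p of all 1320 was censat_7_3 on chromosome 7, named NovelTandem in the table. It had 14.2 to 253 CPM in TOP2B libraries (median 46.1) and 19.1 to 399 in input (median 129). TOP2B was lower in 7 of 7 pairs, by log2 ratios of -1.84, -0.39, -0.40 and -2.08 in the etoposide series and -0.69, -1.29 and -0.78 in the mitoxantrone series. The log2 fold change was -1.05 (SE 0.23, edgeR adjusted p = 0.524). In the drug-treated pairs of the same replicas it was lower in 6 of 7. With untreated TOP2A against the same inputs it was higher in 0 of 7 pairs (mean log2 ratio -2.72). The 5S region censat_16_32, named after its values were seen, had 9.46 to 302 CPM in TOP2B (median 68.2) and 16.6 to 310 in input (median 177), with a log2 fold change of -0.96 (SE 0.27, edgeR adjusted p = 0.548). The highest fold change of the class among regions with a mean of at least 50 reads was that of censat_22_63, 0.41 (SE 0.33, edgeR adjusted p = 0.946), which was higher in 4 of 7 pairs. The region read most, censat_Y_23, had 279 to 881 CPM in TOP2B (median 699) and 161 to 1096 in input (median 609). Within the class, chromosome 13 was higher in 7 of 7 pairs, 3.95% in TOP2B and 3.51% in input (mean log2 ratio 0.19 ± 0.13, exact permutation p = 0.0156, adjusted p = 0.574), and in 2 of 7 drug-treated pairs. Chromosome Y had the highest mean ratio (0.29 ± 0.53, higher in 4 of 7) and chromosome 18 the lowest (-0.40 ± 0.80, lower in 3 of 7).

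HSat1A, an AT-rich satellite of the acrocentric chromosomes and chromosomes 3 and 4, was the class with the highest mean ratio, but it rested on few reads. Its libraries held 18 to 574 HSat1A reads in TOP2B, or 0.00905% to 0.247% of region reads (median 0.0596%), and 38 to 1111 in input, or 0.00391% to 0.0963% (median 0.0378%). The log2 ratio ran from -0.63 in etoposide-series replica 2 to 4.35 in mitoxantrone-series replica 2 (exact permutation p = 0.109, adjusted p = 0.328). Mitoxantrone-series replica 2 held 295 reads in TOP2B and 38 in input. Without that pair the mean log2 ratio was 0.61, against 1.14 with it. All 14 regions tested had a log2 fold change above 0 (median 0.73), against 651 of 1320 over all regions tested. At an unadjusted edgeR p under 0.05 there were 4 (28.6%), beside 0.758% higher over all regions tested, and none was called. Only these 14 of the 24 HSat1A regions passed the filter on low counts. High counts in TOP2B libraries alone could meet that filter, so the shared direction may come in part from it. In etoposide-series replica 2 all 14 were lower in TOP2B. The region hsat1A_13_1 on chromosome 13 had 15.1 to 590 CPM in TOP2B (median 154) and 10.7 to 200 in input (median 88.6), with a log2 fold change of 0.98 (SE 0.41, edgeR adjusted p = 0.774, higher in 5 of 7 pairs). Within HSat1A neither chromosome with a mean of at least 50 reads departed from input in the same direction in 7 pairs: the mean log2 ratio was -0.18 on chromosome 4 and -0.04 on chromosome 13.

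HSat1B, which occurs chiefly on the Y chromosome, had a mean log2 ratio of 0.63 ± 1.24 (SD, 7 pairs; higher in 4 of 7, exact permutation p = 0.25) on 92 to 417 reads in TOP2B libraries and 86 to 935 in input. None of its regions reached a mean of 50 reads, so no region or chromosome of this class was named. Of 22 regions tested, 17 lay above 0 (median 0.34), against 651 of 1320 over all regions tested. At an unadjusted edgeR p under 0.05 there was 1 (4.55%), a higher one, beside 0.758% higher over all regions tested.

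The alpha satellite classes showed no direction common to the pairs. Higher-order alpha satellite took 0.0679% to 0.720% of region reads in TOP2B libraries (median 0.301%) and 0.0528% to 0.777% in input (median 0.179%), with a mean log2 ratio of 0.26 ± 0.96 and 3 of 7 pairs higher. Monomeric alpha satellite had 0.21 ± 0.67 and divergent alpha satellite 0.24 ± 0.88, higher in 5 and 4 of 7 pairs. A single pair carried the positive means. In mitoxantrone-series replica 2 the log2 ratio was 2.00 for higher-order, 1.89 for divergent and 1.59 for monomeric copies, and without it the 3 means were -0.03, -0.04 and -0.02. The live arrays, the 41 regions named as kinetochore-bearing higher-order arrays, had 0.29 ± 0.97 together and the other 79 higher-order regions 0.13 ± 1.06. In the deepest pair the live arrays had -0.14. Of 219 alpha satellite regions tested with edgeR, 153 had a log2 fold change above 0 (median 0.10), against 651 of 1320 over all regions tested. By class these were 88 of 121 monomeric, 28 of 41 divergent and 37 of 57 higher-order regions. None of the 219 had an unadjusted p under 0.05 by the fit of all regions.

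The live array on chromosome 8, hor_8_2, was the higher-order region read most, with 35.2 to 361 CPM in TOP2B libraries (median 318) and 57.0 to 423 in input (median 216); the log2 fold change was 0.14 (SE 0.30, edgeR adjusted p = 0.966). Between regions with a mean of at least 50 reads the higher-order fold changes reached from -0.18 for hor_19_13 to 0.41 for hor_9_1. Among monomeric regions, mon_8_1 was read most, with 478 to 4982 CPM in TOP2B (median 1164) and 300.5 to 4948 in input (median 974). The extremes were mon_20_12 at 0.47 (SE 0.29) and mon_17_5 at -0.36 (SE 0.18), the first higher and the second lower in 6 of 7 pairs. Each had an edgeR adjusted p of 0.959. Their unadjusted edgeR p of 0.378 and 0.350 were larger than these SE alone would give. The divergent regions dhor_6_1, dhor_1_1 and dhor_3_2 had log2 fold changes of 0.17, 0.35 and 0.14. Within divergent alpha satellite, chromosome 19 held 3.45% of the class in TOP2B and 5.53% in input and was lower in 7 of 7 pairs, by log2 ratios between -0.10 and -2.35 (mean -0.76 ± 0.80, exact permutation p = 0.0156, adjusted p = 0.574). In the drug-treated pairs it was lower in 2 of 7. Chromosome 14 had the lowest mean within higher-order alpha satellite (-0.61 ± 1.81) and chromosome X the highest (0.54 ± 0.87), both with differences between pairs larger than the mean.

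HSat2 and HSat3, built from short pentamer-like repeats and largest on chromosomes 1, 9, 15, 16 and Y, averaged near input as whole classes. The mean log2 ratio was -0.05 ± 0.89 for HSat2 and -0.07 ± 1.03 for HSat3 (SD, 7 pairs; 3 of 7 pairs higher for each). The pairs differed from each other by far more than this. HSat3 had -1.53 in etoposide-series replica 1 and 1.87 in mitoxantrone-series replica 2. Of the regions tested with edgeR, 76 of 96 in HSat3 (median -0.19) and 31 of 39 in HSat2 (median -0.13) lay below 0. Over all regions tested 669 of 1320 did. At an unadjusted edgeR p under 0.05 there were 7 HSat3 regions (7.29%), all lower, and 0 HSat2 regions, beside 5.23% lower over all regions tested. None was called. The region read most, hsat3_9_3 on chromosome 9, had 65.3 to 2538 CPM in TOP2B libraries (median 763) and 144 to 1725 in input (median 573), with a log2 fold change of -0.05 (SE 0.35, edgeR adjusted p = 0.991). Among regions with a mean of at least 50 reads, the lowest fold change of HSat3 was that of hsat3_22_11, -0.74 (SE 0.33, edgeR adjusted p = 0.774, lower in 6 of 7 pairs), and the highest that of hsat3_22_2, 0.32 (SE 0.39). HSat2 regions of that depth lay between -0.38 for hsat2_16_11 and 0.18 for hsat2_10_3. Within HSat3, chromosome 17 was higher in 7 of 7 pairs, 10.9% of the class in TOP2B and 9.81% in input (mean log2 ratio 0.16 ± 0.16, exact permutation p = 0.0156, adjusted p = 0.574), and in 3 of 7 drug-treated pairs.

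Ribosomal DNA, the tandem genes of the large ribosomal RNAs, took 0.0156% to 0.237% of region reads in TOP2B libraries (median 0.0745%) and 0.0158% to 0.251% in input (median 0.0834%), with a mean log2 ratio of 0.14 ± 0.53 and 3 of 7 pairs higher. The block read most, rDNA_21_1 on chromosome 21, had 88.1 to 1242 CPM in TOP2B (median 398) and 85.7 to 1748 in input (median 539.7), with a log2 fold change of -0.14 (SE 0.20, edgeR adjusted p = 0.959). The other 4 blocks lay between 0.33 for rDNA_13_1 on chromosome 13 (SE 0.22, edgeR adjusted p = 0.910) and 0.47 for rDNA_22_1 on chromosome 22 (SE 0.30). The blocks are near-identical copies, so the assignment of reads among them is uncertain, and the same holds for copies within satellite arrays.

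Transition DNA held most of the region reads in both groups, so its share had little room to rise, and its class ratio of 0.01 ± 0.02 is no measure of stability. Of 600 transition regions tested, 345 lay above 0 and 255 below (median 0.03), and none was called. Over all 1320 regions tested 651 lay above 0 and 669 below. At an unadjusted edgeR p under 0.05 there were 24 transition regions, or 4% of them, beside 5.98% of all regions tested. The region read most, the p arm stretch ct_8_1, had 53718 to 72989 CPM in TOP2B libraries (median 65040.3) and 55337 to 72756 in input (median 61706), with a log2 fold change of -0.03 (SE 0.04, edgeR adjusted p = 0.959). Among the 43 stretches named as p or q arm, fold changes were between -0.62 and 0.28, with 20 above 0 and 23 below. The lowest was the q arm stretch of chromosome 22, ct_22_103, named after its values were seen: it had 1951 to 15491 CPM in TOP2B (median 4499) and 2230.1 to 14255 in input (median 8771), with TOP2B lower in 6 of 7 pairs and a log2 fold change of -0.62 (SE 0.18, edgeR adjusted p = 0.601). Among all transition regions with a mean of at least 50 reads, ct_19_2 had the lowest fold change, -0.70 (SE 0.37, lower in 6 of 7 pairs, edgeR adjusted p = 0.889), and ct_4_9 the highest, 0.55 (SE 0.23, higher in 6 of 7 pairs, edgeR adjusted p = 0.774).

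By chromosome, transition reads shifted strongly in some pairs and hardly in others. Chromosome 22 had the lowest mean log2 ratio within the class (-0.18 ± 0.27, lower in 6 of 7 pairs, exact permutation p = 0.125), holding 3.41% of transition reads in TOP2B and 3.86% in input. Chromosome Y had the highest (0.18 ± 0.37, higher in 4 of 7, exact permutation p = 0.422). Chromosomes 20, 17, 16 and 2 followed chromosome 22 at the low end, with means from -0.09 to -0.07, and chromosomes 3, 6, 4 and 5 followed chromosome Y at the high end, with means from 0.17 to 0.11. The SD over the 24 chromosomes was 0.309 in etoposide-series replica 1 and 0.264 in etoposide-series replica 4, whose chromosome ratios ran together (Pearson r = 0.97 over 24 chromosomes, as a description). It was 0.029 and 0.0505 in the deeper etoposide-series replica 2 and mitoxantrone-series replica 3, whose ratios correlated with those of etoposide-series replica 1 (r = 0.838 and 0.881) at a smaller size. Mitoxantrone-series replica 2 had an SD of 0.178 and r = 0.656 with etoposide-series replica 1. In mitoxantrone-series replica 1 and etoposide-series replica 3 the SD was 0.113 and 0.0602, and the correlation with etoposide-series replica 1 was negative (r = -0.778 and -0.558). Chromosomes of 1 library share its depth and its processing. Base composition was not measured here, and its part in these ratios was not tested.

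**Figure D4:**
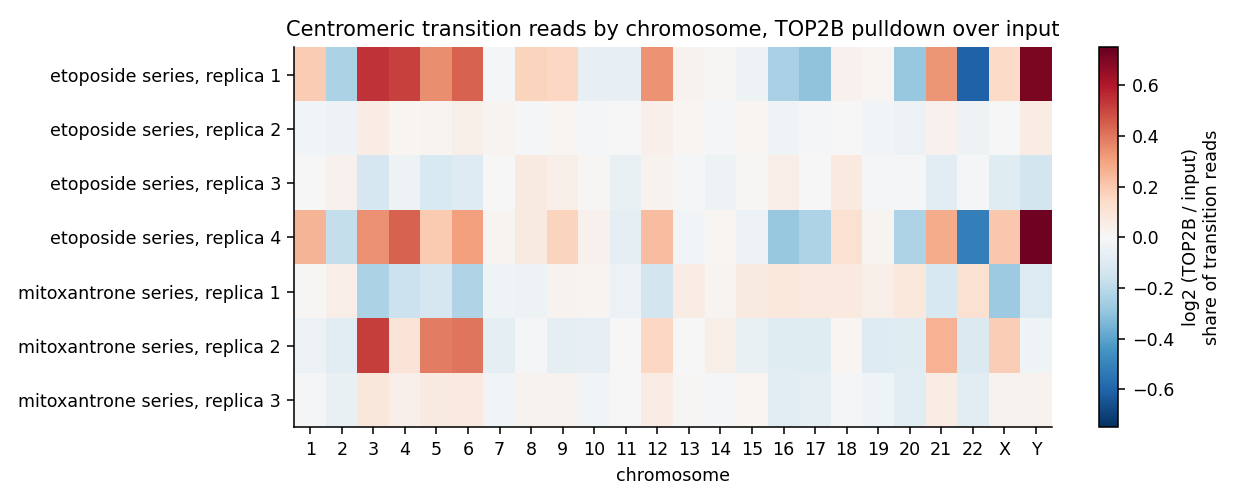
Log2 ratio of each chromosome's share of centromeric transition reads in the untreated TOP2B pulldown to that in input (colour, red higher in TOP2B, blue higher in input), for 24 chromosomes (columns) in 7 pairs (rows). Etoposide-series replicas 1 and 4 have chromosomes 3, 4, 5, 6 and Y in red and 16, 17, 20 and 22 in blue, and mitoxantrone-series replica 1 has chromosomes 3, 4, 5 and 6 in blue.

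Across all classes, edgeR with the replica as a block tested 1320 regions and called 0 higher (0%) and 0 lower (0%) in TOP2B at an adjusted p of 0.05. At an unadjusted p under 0.05 there were 79 regions (5.98%), where 66 would fall by the threshold alone; 10 of them were higher (0.758%) and 69 lower (5.23%). Without etoposide-series replica 1 there were 41. DESeq2 likewise called 0 regions, with 80 at an unadjusted p under 0.05, and limma voom called 0, with 117. Without the filter on low counts edgeR called 29 of 2317 regions, 26 lower and 3 higher, of which 28 had also been tested in the filtered fit without being called. In that setting the estimated prior degrees of freedom were infinite, so that all regions were given 1 common spread around the trend, whereas they were 8.04 with the filter. The 3 higher ones were hsat1A_13_1, hsat1A_21_1 and hsat1A_22_1, and the lower ones included ct_22_103, gsat_12_2, bsat_1_1 and bsat_22_6, named after their values were seen. In the filtered fit gsat_12_2 had a log2 fold change of -0.78 (SE 0.26), bsat_22_6 one of -0.61 (SE 0.15), hsat1A_22_1 one of 1.46 (SE 0.45) and hsat1A_21_1 one of 1.42 (SE 0.45).

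Of the 1320 regions tested, 3 were higher in 7 of 7 pairs (0.227%) and 22 lower (1.67%). The 3 higher ones were ct_14_63, mon_7_5 and ct_Y_14. The region ct_14_63 on chromosome 14 had a log2 fold change of 0.38 (SE 0.16), mon_7_5 on chromosome 7 one of 0.63 (SE 0.34) and ct_Y_14 on chromosome Y one of 0.19 (SE 0.15), all 3 named after their values were seen. Each was higher in 2 of 7 drug-treated pairs. The 22 lower ones held 8 transition, 5 beta satellite and 3 each of gamma satellite, HSat3 and other centromeric regions. Of these, ct_16_59 on chromosome 16 was the one that was also lower in 7 of 7 drug-treated pairs (log2 fold change -0.39, SE 0.14, edgeR adjusted p = 0.695); it had 517 to 900 CPM in TOP2B libraries (median 634) and 639 to 1037 in input (median 771).

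**Figure D5:**
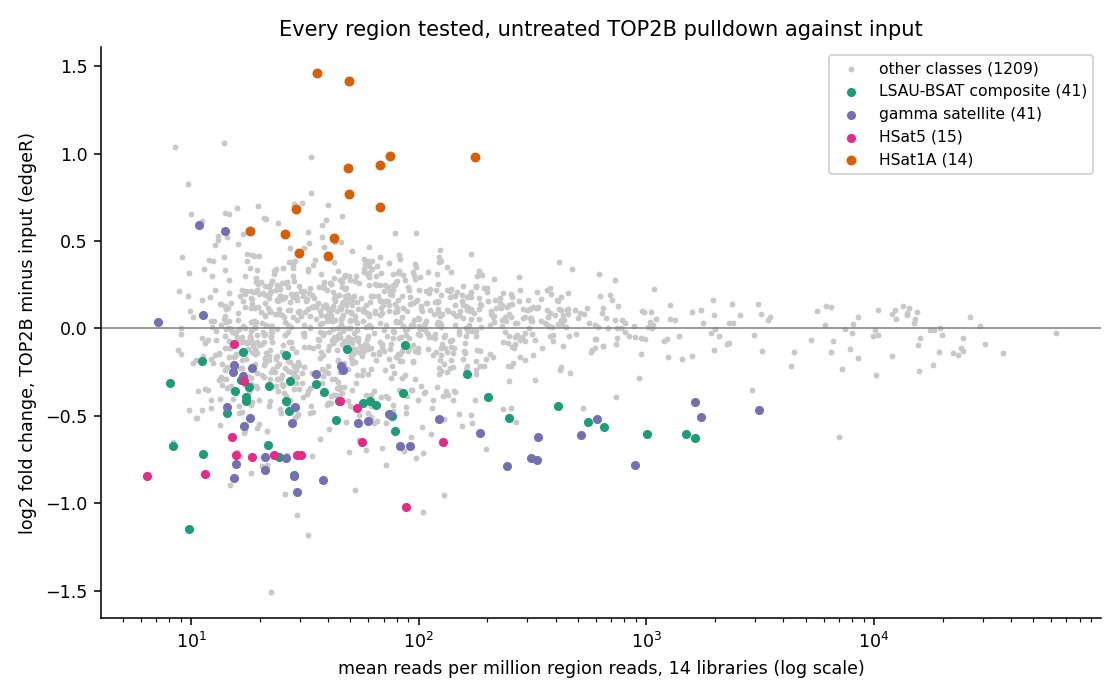
Log2 fold change of TOP2B against input from edgeR (vertical axis) and mean CPM over 14 libraries (horizontal axis, log scale) for the 1320 regions tested, 1 point each. Green LSAU-BSAT composites, violet gamma satellite and pink HSat5 lie below 0 in 41 of 41, 37 of 41 and 15 of 15 regions, and orange HSat1A above 0 in 14 of 14. Over all regions 669 lie below 0 and 651 above. None passed an adjusted p of 0.05.

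When every region was set against its own class, which removes a shift of the whole class, 0 of 667 regions (0%) passed an adjusted p of 0.05, and 59 (8.85%) had an unadjusted exact permutation p under 0.05. With 7 pairs, 209 regions would have had to reach the smallest p of 0.0156 before any could pass, so the 0 says little about single regions. With a pair left out, the count of unadjusted p under 0.05 lay between 25, without etoposide-series replica 4, and 58, without mitoxantrone-series replica 1. It was 35 or lower without any 1 of the other 6. With 6 pairs the smallest exact p is 0.0312, and only regions with the same sign in all 6 pairs can pass 0.05. Part of the fall from 59 is thus set by the test. In this measure 9 regions were higher (1.35%) and 9 lower (1.35%) in 7 of 7 pairs, each at an adjusted p of 0.521. Transition DNA gave 4 of each, monomeric alpha satellite 2 lower, HSat3 2 higher and 1 lower, gamma satellite 2 higher, beta satellite 1 higher and the other centromeric satellites 2 lower. The largest of the higher ones was bsat_19_17 on chromosome 19, at a mean log2 ratio of 0.63 ± 0.77 within beta satellite. The lowest was the HSat5 region censat_19_1, also on chromosome 19, at -0.89 ± 0.97. In the drug-treated pairs 14 of the 18 had the same sign of the mean, and 2 kept their direction in 7 of 7 pairs: gsat_8_13 higher and ct_16_59 lower. Of the 18, 9 kept it in at least 5 of 7 pairs, and the median was 4.5 pairs. The share with the same sign over all 667 regions was not counted, and the drug-treated pairs come from the same replicas. For chromosomes within classes 0 of 147 (0%) passed an adjusted p of 0.05, where 46 would have had to reach the smallest p before any could pass; 12 (8.16%) had an unadjusted exact permutation p under 0.05, and 3 were higher (2.04%) and 1 lower (0.68%) in 7 of 7 pairs. These were the 4 already described, on chromosomes 13, 17, 8 and 19.

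TOP2A, the other type II topoisomerase of human cells, was pulled down from untreated cells of the same replicas. The inputs are the same libraries, so the ratios to input are given side by side only. For gamma satellite the mean log2 ratio to input was -0.51 with TOP2B and -0.69 with TOP2A. For beta satellite it was -0.34 with TOP2B and -0.36 with TOP2A, and for the other centromeric satellites -0.23 with TOP2B and -0.30 with TOP2A. For HSat1A it was 1.14 with each, and both means lean on 1 shared input library. Against the input of mitoxantrone-series replica 2, with 38 HSat1A reads, the log2 ratio was 4.35 with TOP2B and 5.47 with TOP2A. For LSAU-BSAT composites the mean log2 ratio to input was -0.54 with TOP2B and -0.65 with TOP2A. It was -0.67 and -0.96 for HSat5, and -0.72 and -0.98 for the 5S repeats, in the same order. With TOP2A the regions bsat_1_1 and ct_22_103 were each higher than input in 1 of 7 pairs. As a part of its class gsat_8_7 was higher in 7 of 7 TOP2A pairs (mean log2 ratio 0.09). The direct ratio of TOP2B to TOP2A, which leaves the input out, did not pass the test for any of the 12 classes. Its mean was 0.17 ± 0.28 for gamma satellite (SD, 7 pairs; higher with TOP2B in 5 of 7, exact permutation p = 0.172, adjusted p = 0.869), 0.02 ± 0.25 for beta satellite and 0.00 ± 0.66 for HSat1A. In each of these the SD was larger than the mean, and the pairs lay on both sides of 0, between -0.18 and 0.57 for gamma satellite, -0.24 and 0.40 for beta satellite and -1.12 and 0.80 for HSat1A.

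The drug-treated TOP2B and input libraries of the same 7 replicas share no library with the untreated pairs, but they carry a drug. They pool 4 pairs with 100 µM etoposide and 3 with 20 µM mitoxantrone. There, beta satellite had a mean log2 ratio to input of -0.26 ± 0.57 (lower in 6 of 7 pairs, exact permutation p = 0.266), gamma satellite -0.37 ± 0.71 (lower in 5 of 7, exact permutation p = 0.25) and HSat1A 0.80 ± 1.44 (higher in 5 of 7, exact permutation p = 0.172), with an adjusted p of 0.75 for each. The other centromeric satellites had -0.20 ± 0.48 and were lower in 4 of 7 pairs (exact permutation p = 0.312, adjusted p = 0.75). LSAU-BSAT composites had -0.39 ± 0.73, lower in 6 of 7, HSat5 -0.56 ± 0.57, lower in 7 of 7, and the 5S repeats -0.43 ± 1.01, lower in 5 of 7. The chromosome ratios of transition DNA in the drug-treated pair ran with those of the untreated pair of the same replica in etoposide-series replicas 1 and 4 (r = 0.953 and 0.68 over 24 chromosomes) and in mitoxantrone-series replicas 1 and 2 (0.941 and 0.833). They did not in etoposide-series replica 3 (-0.617) and in the deeper etoposide-series replica 2 and mitoxantrone-series replica 3 (0.136 and -0.177). These correlations are descriptions of libraries prepared within 1 replica.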

How the data were processed

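The deposited values were whole-number read counts of 2523 regions in 42 libraries, made by the authors with Trimmomatic 0.36, BWA 0.7.17 and HTSeq (version string 2.7.13) on T2T-CHM13, per the submitters' processing notes. No source used here gives the mapping quality cutoff or says how mates of a pair were counted. The 5 tallies of reads given to no region stayed out of tests; in the 14 libraries 21.2% to 68.3% of reads had low mapping quality and 29.1% to 73.3% fell in no region.

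Pairs follow the replica names of the labels. As a check, each TOP2B library correlated with its own input above 0.1 after removal of group means (r from 0.299 to 0.965, 668 regions), though the own input was the best match in 3 of 7.

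Regions were tested with edgeR 4.0.16 (R 4.3.3; quasi-likelihood, TMM, filterByExpr minimum count 10, replica as a block, Benjamini-Hochberg, threshold 0.05), beside DESeq2 1.42.0 and limma 3.58.1. The fit was tested on simulated data. The SE of a fold change is the size of its log2 value divided by the square root of the F statistic of the fit. The Poisson bound of edgeR raised the p of 42 regions. That SE leaves the bound out, so for those regions it understates the uncertainty that the test used. CPM are scaled to the region reads of a library. Class shares used (class reads + 0.5) over region reads. A region or a chromosome was set against its class where it and another of the class had a mean of at least 50 reads. Both were tested by permuting signs exactly over the 7 pairs (two-sided), in Python 3.11.15 with scipy 1.17.1; the smallest p is 0.0156 for 7 pairs. All are shares of a library, so a change common to all regions cannot be seen.

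Regions named were, per class, the one with the highest mean CPM and those with the highest and lowest log2 fold change among regions with a mean of at least 50 reads, chromosomes with the highest and lowest mean ratio within a class, and others as stated. Members and lists were chosen with earlier results of these data known. Alternatives are given in the closing section.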

Additional observations from a re-analysis of the deposited data

Results flagged for a closer look

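Among 63 sets of 7 paired log2 ratios of TOP2B to input (12 classes, 29 regions and 22 chromosomes within classes), 6 held 1 pair far from the other 6 by Dixon's criterion, which chance meets in about 1 in 20 sets. Mitoxantrone-series replica 2 stood apart for the monomeric alpha satellite class, at 1.59, and for the HSat2 region hsat2_16_11 on chromosome 16, at 5.68. Etoposide-series replica 3 stood apart for the monomeric region mon_20_12 on chromosome 20, at 4.27, and for chromosome 10 within HSat3, at 1.15. Etoposide-series replica 4 had -2.11 for chromosome 18 within the other centromeric satellites, and etoposide-series replica 1 had 0.657 for chromosome 4 within HSat1A. Between the mitoxantrone-series and the etoposide-series pairs, an exact permutation of the labels of 3 against 4 pairs cannot give a p below 0.0286, and 7 of the 12 classes would have to reach it for any adjusted p to pass. The smallest p was 0.0857, for transition DNA and for HSat2, and the difference in mean log2 ratio, mitoxantrone series minus etoposide series, was 1.24 in HSat2, 1.20 in HSat3 and 0.79 in the gamma satellite class.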

How the results depend on the processing

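The count of regions called was 0 in every alternative listed here except the fit without a filter, which called 29 (26 lower, 3 higher). Without the replicate block, 0 of 904 regions were called and 6 had an unadjusted p under 0.05, against 79 with it. In the fit with no replicate block, 2 of the 29 named regions changed sign, hsat2_1_6 at 0.0544 and hsat3_9_3 at 0.10; no other call changed with it, and none was made with it. RLE factors gave 78 regions at an unadjusted p under 0.05, no factor 68, all reads as library size 45, a mean of at least 50 reads 53, either series alone 83 (etoposide) and 16 (mitoxantrone), the sequencing order with 3 replicas 26, added TOP2A libraries 85, and edgeR without its Poisson bound, a setting chosen after seeing the data, 79.

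Beta satellite, gamma satellite, other centromeric satellites, HSat1A, HSat1B and ribosomal DNA kept their sign in each alternative, though not their size. The mitoxantrone series alone left gamma satellite at only -0.06, where the etoposide series alone had -0.85. In the same order, the other centromeric satellites stood at -0.06 and -0.35, and beta satellite at -0.18 and -0.46. HSat1A stood at 2.10 and 0.43, HSat1B at 0.40 and 0.81, and ribosomal DNA at 0.20 and 0.09. In the etoposide series alone the mean log2 ratio to input turned to -0.197 for higher-order, -0.207 for divergent and -0.0778 for monomeric alpha satellite. In the mitoxantrone series alone it turned to -0.0105 for transition DNA, 0.66 for HSat2 and 0.62 for HSat3. HSat2 and HSat3 turned to 0.25 and 0.52 in the sequencing order with 3 replicas, and to 0.14 and 0.12 as shares of reads outside transition DNA.

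With each replicate left out in turn, 0 regions were called and 41 to 100 had an unadjusted p under 0.05. The mean log2 ratio to input ranged from -0.0258 to 0.43 for higher-order, -0.0371 to 0.44 for divergent and -0.0241 to 0.34 for monomeric alpha satellite, from -0.32 to 0.12 for HSat2 and from -0.39 to 0.18 for HSat3. The ratio of TOP2B to TOP2A ranged from -0.0413 to 0.0655 for beta satellite, -0.00209 to 0.00515 for transition DNA, -0.18 to 0.0346 for divergent and -0.22 to 0.0472 for monomeric alpha satellite, -0.13 to 0.19 for HSat1A, -0.20 to 0.0214 for HSat2 and -0.21 to 0.10 for HSat3. Among named regions the range crossed 0 for dhor_6_1 (-0.0237 to 0.29), hor_19_13 (-0.43 to 0.0113), hor_8_2 (-0.15 to 0.29), hsat2_1_6 (-0.25 to 0.13), hsat3_9_3 (-0.35 to 0.21), mon_8_1 (-0.0217 to 0.26) and rDNA_21_1 (-0.29 to 7.5e-05).
The causes of these shifts were not tested, and the subsets hold fewer pairs. Depth limits HSat1A and HSat1B, with 18 to 574 and 92 to 417 reads in TOP2B libraries. Class shares describe only reads that passed the mapping filter.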
